A study of Homo sapiens with 4 samples.

Results

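The genes described here encode the enzymes that make cholesterol, the proteins that sense it, and those that move, esterify and export it. They were chosen by name, as the rows of a table of expression levels whose Ensembl IDs map to 30 listed symbols, and all 30 were found among 60617 rows, with 1 row for each symbol. The samples were 2 prostate cancer cell lines of human origin, which had been kept for 6 h either with morusin, a prenylated flavonoid of mulberry, or without it, before RNA sequencing. The 4 groups held 1 library each: 22Rv1 with 75 µM morusin, 22Rv1 without morusin (0 µM), PC3 with 46 µM morusin, and PC3 without morusin (0 µM). 22Rv1 comes from a xenografted prostate carcinoma, and PC3 from a bone metastasis. 22Rv1 was kept in RPMI and PC3 in F12, both with 10% serum, so line, medium and dose cannot be told apart. Serum supplies lipoprotein cholesterol, and both media held it.

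Cells make cholesterol from acetyl-CoA through mevalonate, farnesyl diphosphate, squalene and lanosterol. When sterol in the endoplasmic reticulum falls, the carrier SCAP takes the precursor of the transcription factor SREBP2 to the Golgi apparatus, where it is cut, and the freed factor turns on the synthesis genes together with NF-Y and SP1. When sterol is plentiful, INSIG proteins hold SCAP back, and oxysterols activate the nuclear receptor LXR, which turns on the exporters ABCA1 and ABCG1. Prostate cancer cells also use cholesterol as a source of membrane and, in some settings, of steroid hormones.

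Levels are given as FPKM, fragments scaled to transcript length and to the mapped total, as the authors deposited them. A change is the log2 of (treated FPKM + 1) over (untreated FPKM + 1). On this scale the change of a low gene comes out too small. Each group had 1 library, so no difference within a line has a replicate check and none was tested. Sizes of 2-fold and 1.5-fold on that scale were used to call a gene higher or lower, for genes with at least 1 FPKM in either library compared. The summed FPKM of a library was 335458 to 408628, and depths inferred from the spacing of low values were roughly 19.1 to 40.6 M read pairs (M, mega). Counting errors from those depths had a median over the members of 0.055 log2 units in 22Rv1 and 0.066 in PC3, and cover counting error only. All 6 prostate luminal markers were above 0 in both 22Rv1 libraries, with sums of 722 FPKM treated and 715 FPKM untreated. A list of 4 PC3 markers, KRT81, ANXA2, PLAU and VIM, summed to 3319 FPKM in treated and 2520 FPKM in untreated PC3. In 22Rv1 the same list summed to 44.9 FPKM treated and 29.99 FPKM untreated. It was chosen with earlier results of these data known, so its sums are no independent check of the line. In PC3 the luminal markers KLK2 and KLK3 were listed at 0 in both libraries. HOXB13 alone gave most of the luminal list's sums there, 102 FPKM treated and 177 FPKM untreated. Of 9 markers of blood, endothelial and stromal cells, 4 to 6 were at 0 in each library, and none exceeded 3.01 FPKM.

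In both lines the change also moved with transcript length. Among all genes with a known length, the Spearman correlation of the change with length was -0.55 across 13310 genes in 22Rv1 and -0.39 across 12868 genes in PC3; these genes share their libraries. Over the members the same correlation was -0.67 across 28 genes in 22Rv1 and -0.47 across 29 genes in PC3. In 22Rv1 the median change was 0.36 for transcripts under 2 kb, 0.00 at 2 to 4 kb and -0.33 over 4 kb. In PC3 the same medians were 0.14, -0.03 and -0.23. The median change of genes of like length is therefore given beside the members on which the results turn.

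**Figure D1:**
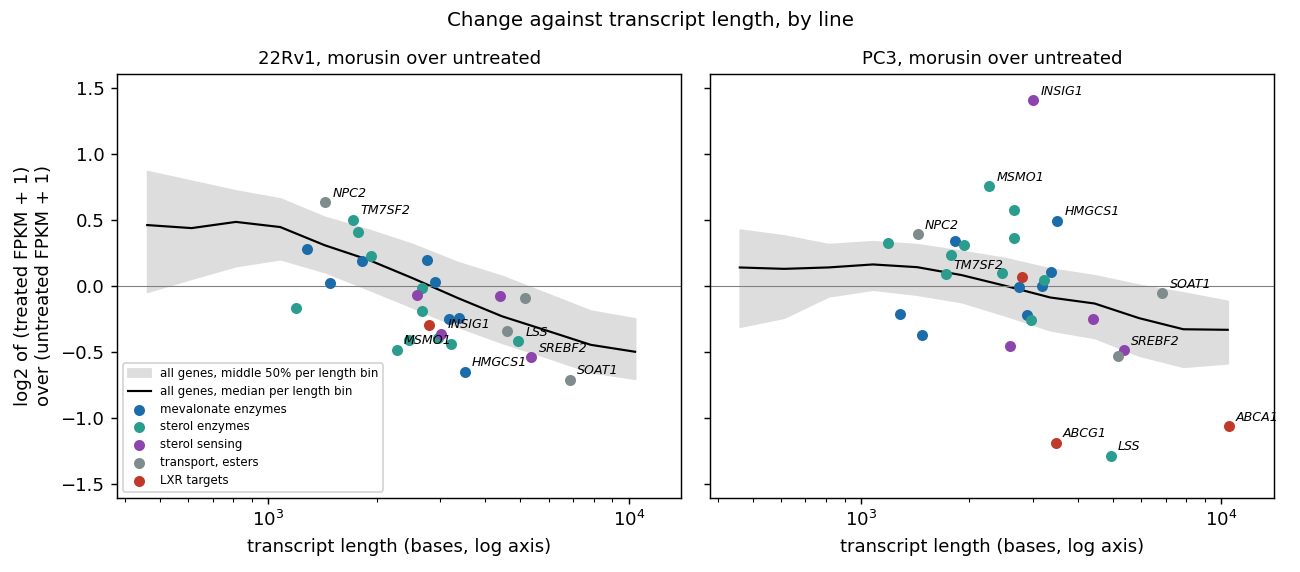
Change with morusin (log2 of treated over untreated FPKM + 1) against transcript length (bases, log axis) in 22Rv1 (left) and PC3 (right). The line and band are the median and 25th to 75th percentile of all genes per length bin and points are members coloured by role; in PC3, INSIG1 at 1.40 lies far above the band and LSS at -1.28, ABCG1 at -1.18 and ABCA1 at -1.06 far below it.

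In PC3 a sterol sensor, INSIG1, was at least 2-fold higher with morusin (1.24% of all genes were), and a synthesis enzyme, LSS, and a pair of sterol exporters, ABCG1 and ABCA1, were at least 2-fold lower (2.64% of all genes were). INSIG1, which retains SCAP in the endoplasmic reticulum and is itself a target of SREBP2, was at 7.31 FPKM in treated PC3 and at 2.14 FPKM in untreated PC3. The ratio of these levels was 3.41, with a counting error of 0.11 log2 units, and the change of 1.40 ranked 86th from the top of 12907 genes. Genes within 10% of its transcript length had a median change of -0.05. In RNA from a whole culture, fewer cells with a transcript and less of it in each cell cannot be told apart. ABCA1, which exports cholesterol to lipid-poor apolipoprotein A-I, was at 1.04 FPKM in treated PC3 and at 3.26 FPKM in untreated PC3, a change of -1.06. ABCG1, which exports cholesterol to high-density lipoprotein, was at 2.03 FPKM in treated PC3 and at 5.87 FPKM in untreated PC3, a change of -1.18. Both exporters thus stood at 0.32 and 0.345 times their untreated levels. They ranked 275th and 175th from the bottom. Genes of ABCA1's length had a median change of -0.32 and those of ABCG1's length of -0.09, and with the length trend removed the changes were -0.80 and -1.14.

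The promoter windows of these genes are shown because they hold letters known as motifs of SREBP, NF-Y and LXR, the factors named above. RefSeq windows on GRCh38.p14, from 250 bases before to 50 bases after each gene start, were found for 26 of the 30 members in 35 windows. ABCG1, ACAT2, FDFT1 and SQLE had no window, so their promoters were not searched. Capitals mark matches, on either strand, to the letters TCACNCCAC for the sterol response element, CCAAT for NF-Y (ATTGG on the other strand) and the direct repeat known as the LXR response element. The INSIG1 window is chr7:155297628-155297927 (plus strand), the MSMO1 window chr4:165327419-165327718 (plus strand) and the LSS window chr21:46228725-46229024 (minus strand). The SREBF2 window is chr22:41832855-41833154 (plus strand) and the ABCA1 window chr9:104928106-104928405 (minus strand), each read 5′ to 3′ along its gene.
INSIG1: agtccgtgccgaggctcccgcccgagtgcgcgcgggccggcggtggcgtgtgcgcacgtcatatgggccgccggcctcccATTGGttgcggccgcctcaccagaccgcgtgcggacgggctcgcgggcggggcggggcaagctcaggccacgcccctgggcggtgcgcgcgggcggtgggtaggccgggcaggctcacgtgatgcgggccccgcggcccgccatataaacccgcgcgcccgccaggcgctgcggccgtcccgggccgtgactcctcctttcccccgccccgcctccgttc
MSMO1: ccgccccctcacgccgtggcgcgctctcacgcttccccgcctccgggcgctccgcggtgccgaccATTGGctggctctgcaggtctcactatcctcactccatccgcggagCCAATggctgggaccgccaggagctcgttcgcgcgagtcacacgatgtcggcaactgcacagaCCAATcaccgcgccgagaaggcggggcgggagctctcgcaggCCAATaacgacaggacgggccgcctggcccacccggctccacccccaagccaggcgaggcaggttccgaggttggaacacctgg
LSS: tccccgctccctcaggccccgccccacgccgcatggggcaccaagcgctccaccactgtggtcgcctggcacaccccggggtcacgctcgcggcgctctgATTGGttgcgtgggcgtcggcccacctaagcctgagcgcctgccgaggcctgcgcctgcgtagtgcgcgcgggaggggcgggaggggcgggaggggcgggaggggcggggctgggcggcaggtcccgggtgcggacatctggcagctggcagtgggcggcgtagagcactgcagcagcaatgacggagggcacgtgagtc
SREBF2: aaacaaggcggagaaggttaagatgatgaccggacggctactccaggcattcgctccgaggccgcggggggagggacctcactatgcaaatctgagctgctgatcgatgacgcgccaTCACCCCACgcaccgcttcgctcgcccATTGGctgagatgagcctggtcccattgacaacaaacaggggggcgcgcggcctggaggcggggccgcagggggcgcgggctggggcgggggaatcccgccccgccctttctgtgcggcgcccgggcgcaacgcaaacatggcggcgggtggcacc
ABCA1: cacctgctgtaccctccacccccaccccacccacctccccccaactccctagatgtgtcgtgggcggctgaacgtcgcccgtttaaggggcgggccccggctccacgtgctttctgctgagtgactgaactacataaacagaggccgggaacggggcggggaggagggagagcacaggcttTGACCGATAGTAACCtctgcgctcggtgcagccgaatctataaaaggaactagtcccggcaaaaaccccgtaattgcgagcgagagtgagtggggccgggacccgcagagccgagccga

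The ABCA1 window held the LXR letters at positions -69 to -55 from the start, on the strand opposite to the gene. It was the only member window of 35 with a match, and 0.239% of all 35116 windows have it. The sterol response letters were found in a single member window, that of SREBF2, at positions -133 to -125, against 1.13% of all windows. CCAAT was found in 22 of 35 member windows (62.9%), against 34.6% of all windows, and in 20 of 26 genes. The SP1 letters GGGCGG were found in 32 of 35 member windows (91.4%), against 44.95% of all, and occurred 6 times in the INSIG1 window and 7 times in the LSS window, where they are not capitalised. Windows of a gene with several starts overlap, and a match describes letters only. Other forms of these elements were not searched, so a window with no match is not shown to lack the element.

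Among the enzymes from squalene to cholesterol, 9 of 11 were above 0 in PC3, where 44.2% of all genes were, and the median change was 0.24 against -0.05 for all genes. With the length trend removed 8 of 11 were above 0 and the median was 0.10, and with equal library sums 8 of 11 and 0.14. MSMO1, the sterol C4 methyl oxidase, was at 10.5 FPKM in treated PC3 and at 5.79 FPKM in untreated PC3. Its change of 0.76 was the only 1 of the 19 synthesis enzymes at least 1.5-fold higher. DHCR7, which makes cholesterol from its last precursor in the Kandutsch-Russell branch, was at 26.9 FPKM treated and at 17.8 FPKM untreated, a change of 0.57, just under that size. FDFT1, squalene synthase, was at 16.99 FPKM treated and at 12.96 FPKM untreated. HSD17B7, the sterol C3 ketoreductase, was at 5.84 FPKM treated and 4.45 FPKM untreated, and NSDHL, the C4 decarboxylase, at 17.5 FPKM treated and 14.0 FPKM untreated. EBP, the sterol isomerase, was at 43.6 FPKM treated and at 36.8 FPKM untreated. CYP51A1, which demethylates lanosterol, SC5D, the C5 desaturase, and TM7SF2, a C14 sterol reductase, had changes of 0.05, 0.10 and 0.09.

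LSS, the cyclase that makes lanosterol, went the other way and had the lowest change of all members. It was at 4.09 FPKM in treated PC3 and at 11.4 FPKM in untreated PC3, a ratio of 0.359 with a counting error of 0.07 log2 units. Its change of -1.28 ranked 128th from the bottom, whereas genes of its length had a median of -0.18. In 22Rv1 it was also lower, at 27.6 FPKM treated and 37.2 FPKM untreated, a change of -0.42 beside -0.26 for genes of its length. SQLE, squalene epoxidase and a rate-limiting step, was the other enzyme of this stretch below 0 in PC3, at 25.8 FPKM treated and 31.0 FPKM untreated.

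The mevalonate enzymes were mixed in PC3, with 3 of 8 above 0 and a median change of -0.01 (mean 0.02). HMGCS1, which makes HMG-CoA, was at 18.5 FPKM in treated PC3 and at 12.9 FPKM in untreated PC3, a change of 0.49, while genes of its length had a median of -0.10. MVD, the mevalonate diphosphate decarboxylase, was at 23.5 FPKM treated and 18.3 FPKM untreated. FDPS, which makes farnesyl diphosphate, had the lowest change of these enzymes, -0.37, at 64.0 FPKM treated and 83.1 FPKM untreated. PMVK, phosphomevalonate kinase, and GGPS1, which leads to geranylgeranyl diphosphate, both had changes of -0.22. IDI1, the isopentenyl diphosphate isomerase, was at 7.05 FPKM treated and 6.48 FPKM untreated. ACAT2, the cytosolic thiolase that opens the pathway, and the kinase MVK differed by under 0.1 FPKM.

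The other 3 sensing genes of PC3 were below 0, and the transport genes were mixed. SREBF2, which encodes SREBP2, was at 6.88 FPKM in treated PC3 and at 10.0 FPKM in untreated PC3, a change of -0.48 beside -0.21 for genes of its length. INSIG2, the paralogue of INSIG1, was at 3.70 FPKM treated and 5.45 FPKM untreated. The ratio of INSIG1 to INSIG2 was therefore 1.97 in treated and 0.392 in untreated PC3, so the order of the paralogues was reversed. SCAP, their partner, was at 22.0 FPKM treated and 26.3 FPKM untreated. NPC1, the membrane protein that releases cholesterol from lysosomes, was at 19.8 FPKM treated and 28.9 FPKM untreated, whereas its soluble partner NPC2 was at 32.5 FPKM treated and 24.5 FPKM untreated. SOAT1, which esterifies cholesterol, was at 4.03 FPKM treated and 4.23 FPKM untreated. STARD4, a soluble sterol carrier, was under the filter at 0.955 FPKM treated and 0.759 FPKM untreated. MYLIP, an LXR-induced ubiquitin ligase that limits lipoprotein uptake, was at 1.35 FPKM treated and 1.24 FPKM untreated, so the third LXR target was not lower. Its levels were near the filter and differed by less than its counting error of 0.18 log2 units.

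**Figure D2:**
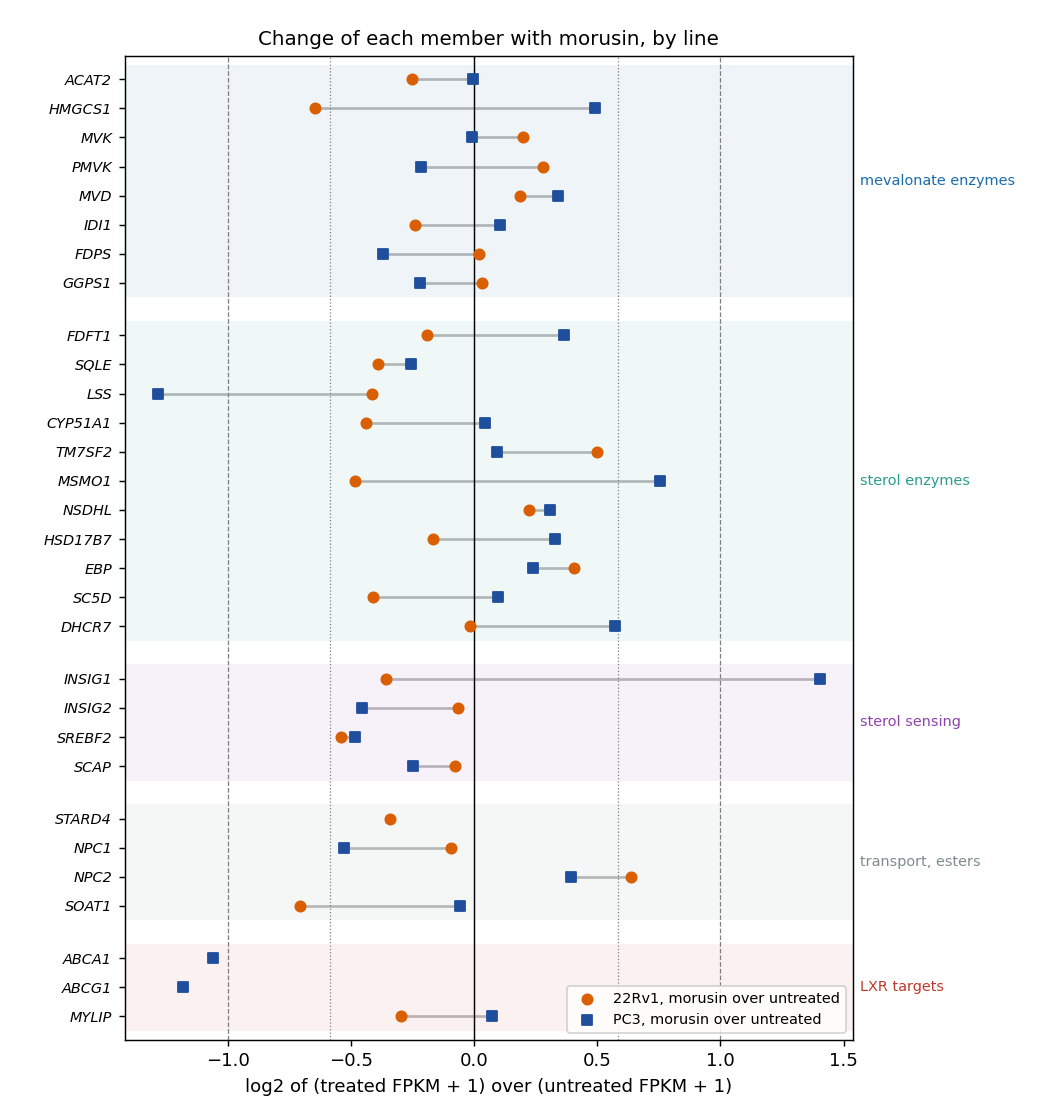
Change of each member with morusin (log2 of treated over untreated FPKM + 1) in 22Rv1 (circles) and PC3 (squares), 1 library per group, grouped by role, with lines at 1.5-fold (dotted) and 2-fold (dashed). INSIG1, MSMO1 and HMGCS1 lie right of 0 in PC3 and left of 0 in 22Rv1, and LSS, ABCA1 and ABCG1 pass -1 in PC3; members under 1 FPKM in both libraries of a line have no point for it.

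In total 29 of the 30 members passed the filter in PC3. Of these, INSIG1 was at least 2-fold higher (1.24% of all genes were) and LSS, ABCA1 and ABCG1 at least 2-fold lower (2.64% of all genes were). At 1.5-fold, 2 were higher (3.59% of all genes) and 3 lower (11.3% of all genes), so the count of lower members is near that of genes at large. Of the 29, 15 were above 0 and 14 below, where 55.8% of all genes were below. Their median change was 0.05 and their mean -0.03, which differ in sign, as do the median of -0.35 and mean of 0.05 over the 4 sensing genes. The levels of all 19 synthesis enzymes summed to 345 FPKM in treated and 337 FPKM in untreated PC3, while those of ABCA1 and ABCG1 summed to 3.07 FPKM treated and 9.13 FPKM untreated.

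In 22Rv1 more members were below 0 than above it, by small amounts, and none reached 2-fold, where 3.48% of all genes were higher and 1.02% lower by that size. Of the 28 that passed the filter, 19 were below 0, against 50.6% of all genes, with a median change of -0.18 against -0.01 for all genes. SOAT1, the esterifying enzyme, was lowest at 5.62 FPKM in treated 22Rv1 and 9.81 FPKM in untreated 22Rv1. Its change was -0.71, beside a median of -0.38 for genes of its length. HMGCS1 was at 35.1 FPKM treated and 55.5 FPKM untreated, a change of -0.65 beside -0.10 for genes of its length. These 2 of 28 members were at least 1.5-fold lower (9.82% of all genes were). NPC2 alone was at least 1.5-fold higher (13.5% of all genes were), at 48.6 FPKM treated and 30.9 FPKM untreated. Its change was 0.64, and genes as short as NPC2 had a median of 0.32.

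All 4 sensing genes of 22Rv1 were below 0, where 50.6% of all genes were, and 3 of 4 with the length trend removed, which put SCAP at 0.11. SREBF2 was at 54.6 FPKM in treated 22Rv1 and at 79.8 FPKM in untreated 22Rv1, a change of -0.54. Genes of its length had a median of -0.29, and with the length trend removed its change was -0.27. INSIG1 was at 29.01 FPKM treated and 37.5 FPKM untreated. SCAP was at 38.0 FPKM treated and 40.2 FPKM untreated, and INSIG2, at 1.31 FPKM treated and 1.42 FPKM untreated, differed by less than its counting error of 0.24 log2 units.

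Of the 11 sterol enzymes in 22Rv1, 8 were below 0, with changes from -0.48 to 0.50. MSMO1 was the lowest, at 18.3 FPKM treated and 25.9 FPKM untreated, while genes of its length had a median of 0.11. CYP51A1 was at 59.9 FPKM treated and 81.5 FPKM untreated, SC5D at 7.87 FPKM treated and 10.8 FPKM untreated, and SQLE at 20.4 FPKM treated and 27.1 FPKM untreated. FDFT1, the most abundant member in untreated 22Rv1, was at 152 FPKM treated and 173 FPKM untreated. HSD17B7 had a change of -0.17. Its log2 ratio without the added 1 was -0.19, close to its counting error of 0.17. DHCR7 was at 59.95 FPKM treated and 60.6 FPKM untreated. The 3 enzymes above 0 have transcripts under 2 kb, as has HSD17B7, which was below 0 with the shortest of them, 1190 bases, and stood at -0.56 with the length trend removed. TM7SF2 was at 28.9 FPKM treated and 20.1 FPKM untreated, EBP at 82.3 FPKM treated and 61.9 FPKM untreated, and NSDHL at 14.1 FPKM treated and 11.9 FPKM untreated. Of the 8 mevalonate enzymes, 5 were above 0 (49.4% of all genes were), with a median of 0.03 and a mean of -0.05, and with MVK, PMVK and MVD at 0.20, 0.28 and 0.19, FDPS and GGPS1 at 0.02 and 0.03, and ACAT2 and IDI1 at -0.25 and -0.24. The count above 0 depended on the setting, with 2 of 8 once the length trend was removed (median -0.14) and 2 of 8 with equal library sums (median -0.17).

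ABCA1 and ABCG1 were barely detected in 22Rv1. ABCA1 was at 0.00532 FPKM treated and 0.0233 FPKM untreated, and ABCG1 at 0.0476 FPKM treated and 0.075 FPKM untreated. These levels rest on about 1.07 to 6.12 estimated read pairs, so a fall of these exporters could not be measured in this line. Neither of them reached 1 FPKM with morusin. The remaining members, STARD4, NPC1 and MYLIP, were below 0 at 4.01, 4.96 and 1.32 FPKM treated and 5.36, 5.36 and 1.85 FPKM untreated. The 19 synthesis enzymes summed to 888 FPKM in treated and 939 FPKM in untreated 22Rv1.

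**Figure D3:**
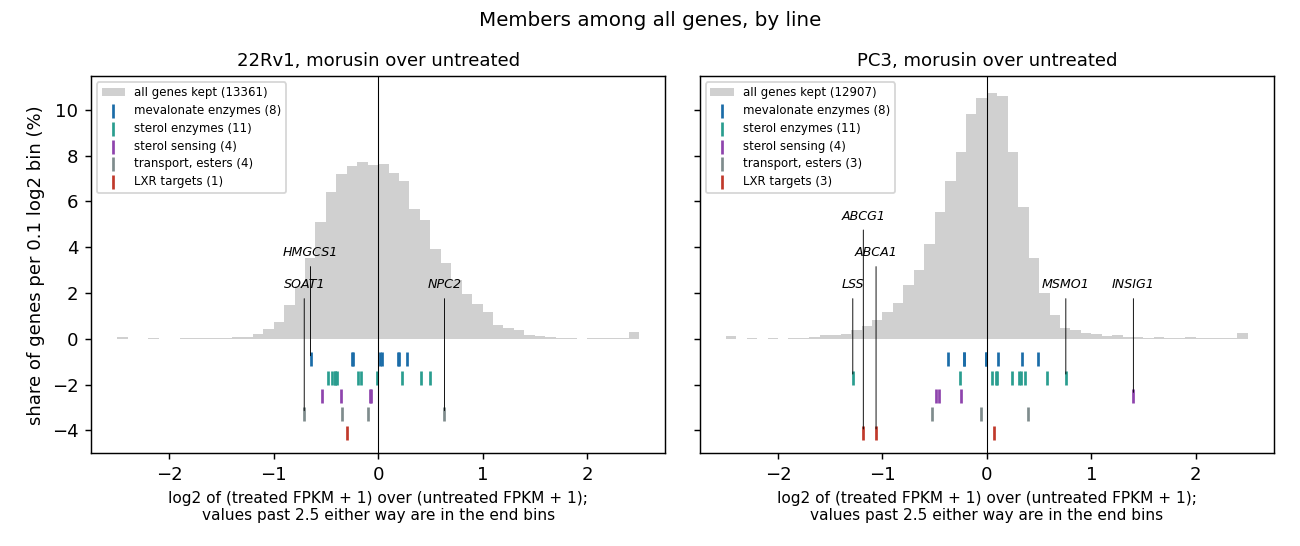
Share of all genes (%, grey bars) by change with morusin in 22Rv1 (left) and PC3 (right), with members as ticks by role and names for those at least 1.5-fold changed. In 22Rv1 the members lie within the bulk of 13361 genes, from -0.71 to 0.64, and in PC3 they reach from -1.28 to 1.40 among 12907 genes.

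The lines also differed in the levels of these genes before treatment. In untreated cells, 15 of 30 members were at least 2-fold higher in 22Rv1 than in PC3, where 19.8% of all genes were, and 4 at least 2-fold lower, where 19.2% of all genes were. At 1.5-fold, 21 were higher, where 32.6% of all genes were, and 4 lower, where 27.9% of all genes were. All 8 mevalonate enzymes had a higher level in 22Rv1 (53.9% of all genes did), with a median log2 ratio of 1.56, and 9 of 11 sterol enzymes, with a median of 0.84, against 0.11 over all genes. FDFT1 was at 173 FPKM in untreated 22Rv1 and 12.96 FPKM in untreated PC3, a ratio of 13.4. INSIG1 was at 37.5 FPKM in untreated 22Rv1 and 2.14 FPKM in untreated PC3, a ratio of 17.5, and SREBF2 at 79.8 FPKM in untreated 22Rv1 and 10.0 FPKM in untreated PC3. SQLE and NSDHL were the 2 enzymes not higher in 22Rv1, with ratios of 0.874 and 0.851.

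NPC1, INSIG2, ABCA1 and ABCG1 were at least 2-fold lower in 22Rv1. NPC1 was at 5.36 FPKM in untreated 22Rv1 and 28.9 FPKM in untreated PC3, and INSIG2 at 1.42 FPKM in untreated 22Rv1 and 5.45 FPKM in untreated PC3. NPC2, the partner of NPC1, was at 30.9 FPKM in untreated 22Rv1 and 24.5 FPKM in untreated PC3, a ratio of 1.26. ABCA1 and ABCG1 had log2 ratios of -2.06 and -2.68 on the FPKM + 1 scale, and they passed the filter through PC3 alone, as STARD4 did through 22Rv1 alone. In untreated cells the paralogues INSIG1 and INSIG2 stood at a ratio of 26.5 in 22Rv1 and 0.392 in PC3.

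**Figure D4:**
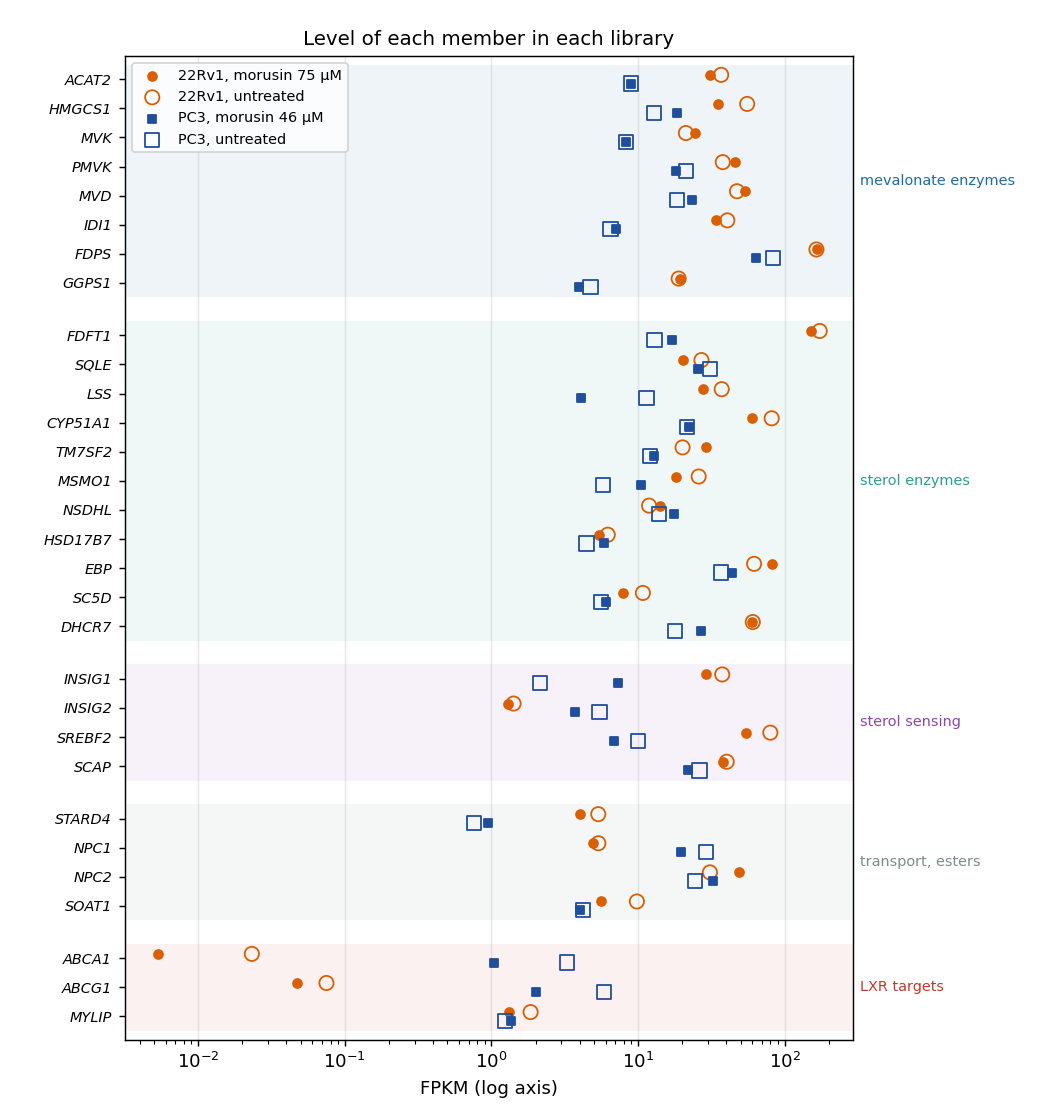
Level of each member (FPKM, log axis) in the 4 libraries, with treated libraries as filled and untreated libraries as open symbols, 22Rv1 as circles and PC3 as squares. The circles lie right of the squares for most synthesis enzymes, such as FDFT1 at 173 FPKM in untreated 22Rv1 and 12.96 FPKM in untreated PC3, and left of them for NPC1, ABCA1 and ABCG1.

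With morusin the gap between the lines was narrower for some members and wider for others. INSIG1 stood at a 22Rv1 to PC3 ratio of 3.97 in treated cells and 17.5 in untreated cells, MSMO1 at 1.74 treated and 4.47 untreated, and HMGCS1 at 1.89 treated and 4.31 untreated. LSS had a wider gap, with a ratio of 6.75 treated and 3.26 untreated. SREBF2 kept its ratio, at 7.93 treated and 7.96 untreated. Over the 19 synthesis enzymes the median ratio was 2.30 treated and 2.58 untreated. The change in PC3 exceeded that in 22Rv1 for 12 of these 19 enzymes, where it did for 42.7% of 11240 genes kept in both lines. Of 27 members kept in both lines, 10 were below 0 in 22Rv1 and above 0 in PC3, where 14.7% of all genes were, and 4 the reverse, where 17.5% of all genes were. With 1 library per group the difference between the lines could not be tested.

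Whether the lines shared a response could be tested, with limma on log2(FPKM + 1) across 13980 genes, the line as a block and 1 residual degree of freedom. None of the 30 members passed an adjusted p of 0.05, where 0.351% of all genes were called higher and 0.236% lower, and 5 of 30 members had an unadjusted p under 0.05, where 18.5% of all genes had, so that count is no larger than over genes at large. LSS had the smallest adjusted p in limma, 0.152, with a shared log2 change of -0.85 (SE 0.25) and a lower level in both treated libraries. SREBF2 had a shared change of -0.51 (SE 0.19) and an adjusted p of 0.213 in limma, and NPC2 a shared change of 0.51 (SE 0.19) and an adjusted p of 0.212, each with the same direction in both lines. ABCA1 and ABCG1, at -0.54 (SE 0.23) and -0.61 (SE 0.26), were near 0 in both 22Rv1 libraries, so these values come from PC3. When all libraries were scaled to an equal sum, limma called 4 members lower, LSS, SREBF2, ABCA1 and ABCG1, with adjusted p from 0.0027 to 0.0411. But that scaling also called 1234 genes lower and 300 higher in all. Nothing in the labels gives repeat cultures. The spread behind these p-values is the difference between the changes of the 2 lines, moderated by the variance of other genes. That difference cannot be told apart from dose and medium. A member that moved in opposite directions in the lines, such as INSIG1 (SE 0.36), has a large SE for that reason.

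Other genes of sterol control were taken from fixed lists. Of 14 genes of SREBP processing and sterol-dependent protein degradation, 12 were below 0 in 22Rv1 (50.6% of all genes) and 10 in PC3 (55.8% of all genes). The list's median change was -0.34 in 22Rv1 and -0.22 in PC3. Over all genes, transcripts over 4 kb had medians of -0.33 in 22Rv1 and -0.23 in PC3. Genes of these lists, here and below, were not set beside genes of like length. SPRING1, a Golgi protein required for SREBP cleavage, was at 5.43 FPKM in treated and 9.63 FPKM in untreated 22Rv1, and at 3.40 FPKM in treated and 9.05 FPKM in untreated PC3. It was thus at least 1.5-fold lower in both lines. MBTPS2, the site-2 protease that frees SREBP, was at 5.06 FPKM in treated and 8.45 FPKM in untreated 22Rv1, and ERLIN1, which binds sterol in the endoplasmic reticulum, at 9.84 FPKM treated and 15.3 FPKM untreated.

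In PC3, 3 genes of this list were at least 2-fold lower (2.64% of all genes were) and 5 at least 1.5-fold lower (11.3% of all genes were). RNF145, a ubiquitin ligase that in mouse liver is induced by LXR and targets SCAP, was at 6.54 FPKM treated and 17.6 FPKM untreated, a change of -1.30. VCP, the ATPase that extracts proteins from the endoplasmic reticulum, was at 43.6 FPKM treated and 90.9 FPKM untreated. TMEM41B, a lipid scramblase, was at 10.5 FPKM treated and 16.6 FPKM untreated. AUP1, a lipid droplet protein of the same degradation route, was at 85.7 FPKM in treated and 55.4 FPKM in untreated 22Rv1, a change of 0.62.

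Of 10 other genes of the LXR list kept in PC3, 7 were above 0 (44.2% of all genes were), with a median of 0.17. The 1 at least 1.5-fold lower, near the 11.3% of all genes, was RXRA, the partner receptor of LXR, at 4.04 FPKM treated and 7.86 FPKM untreated. The receptors NR1H2 and NR1H3 (LXR beta and alpha) were at 50.96 and 6.65 FPKM in treated PC3, and at 41.97 and 5.89 FPKM in untreated PC3. The LXR targets SREBF1, LPCAT3 and PLTP had changes of -0.13, 0.20 and 0.36. In 22Rv1, 7 of 10 were above 0 (49.4% of all genes were) with a median of 0.38. The 2 at least 1.5-fold higher, where 13.5% of all genes were, were ABCA7, an ABCA1 relative, at 21.8 FPKM treated and 11.1 FPKM untreated, and APOC1, an apolipoprotein, at 10.5 FPKM treated and 5.37 FPKM untreated.

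Of the 5 genes for SP1, NF-Y and CREB1, SP1 was at 14.98 FPKM in treated and 31.3 FPKM in untreated 22Rv1, a change of -1.02, and at 20.0 FPKM in treated and 17.6 FPKM in untreated PC3. NFYC, a subunit of NF-Y, was at 20.6 FPKM in treated and 13.4 FPKM in untreated PC3, a change of 0.59. The subunits NFYA and NFYB and CREB1 changed by less than 1.5-fold in both lines.

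Some values carry a limit of counting. Exons of ACAT2 overlap those of TCP1 on the opposite strand by 397 bases, those of MVK overlap MMAB by 306 bases, those of NPC1 overlap RMC1 by 604 bases, and GGPS1 shares 1422 bases with TBCE on the same strand. FDPS overlaps RUSC1-AS1 by 693 bases on the opposite strand, a gene at 1.81 FPKM in treated and 1.08 FPKM in untreated 22Rv1. The overlaps named next were with genes listed at 0.371 FPKM or less in every library. CYP51A1 shares 2844 bases with AC000120.2 on the same strand, and ACAT2 overlaps SOD2-OT1 by 1458 bases and SOD2 by 1141 bases on the opposite strand. FDPS, CYP51A1 and HSD17B7 have 8, 3 and 2 pseudogenes named after them. Reads in such stretches could have been assigned to either gene.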

How the data were processed

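RNA was sequenced from 4 libraries, 1 per line and treatment. Per the labels' protocols, they were made with the TruSeq RNA v2 kit, which does not mark strand, and read as 150-base pairs. Per the submitters' processing notes, the tools were Trimmomatic, HISAT2 and StringTie, and the build GRCh38; for versions, annotation and the use of strand in counting, none is given in the sources used here. FPKM were deposited by the authors, scaled to the total of each library, so abundant transcripts move all other values.

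From these, log2 changes with 1 added were computed for genes at 1 FPKM or more in at least 1 library compared, and limma 3.58.1 (R 4.3.3) was fitted to log2(FPKM + 1) with terms for treatment and line, a prior variance that follows the mean, and genes at 1 FPKM or more in at least 2 of 4 libraries, with Benjamini-Hochberg adjustment. The line pairs the libraries by the labels; deviations from the treatment means correlated at 0.947 within a line across 13980 genes, a value fixed to be equal for both lines. On simulated libraries (noise SD 0.25, 13646 genes) limma called 50 of 50 genes simulated at a log2 change of 2, 49 of 49 at -2, 38 of 50 at 1, 36 of 50 at -1 and 12 of 13447 unchanged genes. The simulation gave both lines the same change and held no length trend, so these rates do not carry over to the real fit.

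Symbols came from a gene name table; lengths (longest basic transcript, coding where there is one) and overlaps from GENCODE 29 (GRCh38; the authors may have used another release), for 99.6% of genes in 22Rv1 and 99.7% in PC3. Depth was read from single-exon genes of 600 to 5000 bases, as the step at which FPKM times length was most frequent, with a halved step (tolerance 1.5%). Each library had 1210 to 1548 low values; the pair step held 57 to 81, the halved step 41 to 59, and the next best choice of steps 73 to 108 together, so depths are rough. Other steps ran in Python 3.11.15 (pandas 2.3.3, statsmodels 0.14.6, scipy 1.17.1). Members and lists were chosen with earlier results of these data known. All members are named, and of the other lists each gene at least 1.5-fold changed in a line and at 5 FPKM or more there, apart from an item that is not reported here. Alternatives were pseudocounts of 0.1 and 5, other filters, equal library sums, median centring, a removed length trend (local regression), and limma without block or trend.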

Additional observations from a re-analysis of the deposited data

Results flagged for a closer look

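For 3 members the treated library moved one way in PC3 and the other way in 22Rv1, with changes at least 1 log2 unit apart. INSIG1 had changes of 1.40 in PC3 and -0.36 in 22Rv1, a difference of 1.76. MSMO1 had changes of 0.76 in PC3 and -0.48 in 22Rv1, a difference of 1.24. HMGCS1 had changes of 0.49 in PC3 and -0.65 in 22Rv1, a difference of 1.14. These differences were not tested, since each rests on 4 libraries, and dose and medium cannot be told apart from the line.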

How the results depend on the processing

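The calls at 1.5-fold were few and moved with the setting. In 22Rv1, 2 members were lower as reported, 1 with a pseudocount of 5, 7 with equal library sums and 1 with the length trend removed. The 1 member higher became 0 under those 3 settings. In PC3, 2 members were higher as reported, 1 with a pseudocount of 5, and 3 with a pseudocount of 0.1 or median centring; 3 were lower as reported, 2 with a pseudocount of 5 or a filter of 5 FPKM, and 4 with equal sums. Mevalonate enzymes above 0 in PC3 numbered 3 as reported, 4 with the length trend removed and 5 with median centring. The median change of synthesis enzymes in 22Rv1, -0.17, was -0.33 with equal sums; in PC3, 0.10, it stayed above 0 in all alternatives, down to 0.01 with equal sums. The median of the LXR targets in PC3, -1.06, was -1.49 with a pseudocount of 0.1, -0.45 with 5 and -0.80 with the length trend removed. In 22Rv1 it rests on MYLIP alone, at -0.30, and was -0.45 and -0.12 with those pseudocounts, -0.037 with no filter and -0.41 with equal sums; with a filter of 5 FPKM no LXR target was left. Members at least 2-fold lower in untreated 22Rv1 than in untreated PC3 numbered 4, and 2 with a pseudocount of 5. Equal sums shifted the median of all genes to -0.18 in 22Rv1 and -0.14 in PC3. At 1.5-fold, the share of all called genes that were higher was then 29.4% in 22Rv1 (57.9% as reported) and 15.2% in PC3 (24.1% as reported). In 22Rv1 it was 70.9% with a pseudocount of 5. The shared test called 0 members as reported and in each alternative run for it except equal sums, which called 4. A removed length trend and a filter of 5 FPKM were not run for the shared test, so its dependence on length was not checked. Without the block it called 0 members and 0 genes in all (54 at an unadjusted p under 0.05 in limma), against 49 higher and 33 lower genes with the line as a block. Over all genes it called 0 without a filter (2282 at an unadjusted p under 0.05), 18 higher and 15 lower with a pseudocount of 5, 156 and 46 with median centring, and 29 and 24 without the trend. Leaving out a library was not run, since no residual degree of freedom would be left. Over INSIG1's alternatives in PC3 the change ranged from 0.79 to 1.73, and over those of LSS from -1.46 to -0.85. No member past 1.5-fold in a line changed sign in that line under the alternatives run. The cause of these shifts was not tested. Low read numbers limit ABCA1 and ABCG1 in 22Rv1.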

Other observations

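Of 11 genes of the isoprenoid branches, 10 were above 0 in PC3 and 4 in 22Rv1, against 44.2% and 49.4% of all genes, and none reached 1.5-fold in PC3. NUS1, a subunit of the enzyme that makes dolichol precursors, was the 1 below 0 in PC3, at 11.5 FPKM treated and 17.6 FPKM untreated, and in 22Rv1 it was at 13.1 FPKM treated and 20.7 FPKM untreated. RABGGTA and RABGGTB, the catalytic subunits of Rab geranylgeranyl transferase, were at least 1.5-fold higher in 22Rv1 (2 of 11 genes of the list, where 13.5% of all genes were), at 26.01 and 30.8 FPKM treated and 15.5 and 17.6 FPKM untreated.

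Of the sterol transfer list, 11 genes were kept in 22Rv1 and 13 in PC3, with median changes of 0.01 and -0.22. At least 1.5-fold lower were 1 of 11 in 22Rv1 (9.82% of all genes) and 2 of 13 in PC3 (11.3% of all genes). GRAMD1B, which takes sterol from the plasma membrane to the endoplasmic reticulum, was at 66.8 FPKM in treated and 102 FPKM in untreated PC3, a change of -0.60, and was listed at 0 in both 22Rv1 libraries. OSBPL5, a lipid transfer protein, was at 10.6 FPKM in treated and 16.9 FPKM in untreated PC3. OSBP, the oxysterol-binding protein of the Golgi contact sites, was at 18.0 FPKM in treated and 28.5 FPKM in untreated 22Rv1, a change of -0.64.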
